A study of Mus musculus with 54 samples.

Results

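Chromatin loops whose anchors both lay away from protein-coding genes were taken from the Hi-C loop lists of gemcitabine-resistant and parental mouse pancreatic cancer cells. Hi-C ligates and sequences DNA ends that are close together in the nucleus, and a loop is a pair of bins of 5 kb that a caller scored as contacting more than their surroundings. A loop was a member when it lay on an autosome, spanned 35 to 395 kb, and had no protein-coding gene within 5 kb of either anchor bin. It also had no border of its own condition's topologically associating domains between the anchors, farther than 20 kb from both. By this rule 904 of 7169 resistant loops and 794 of 6829 parental loops were members. These were 13.0% of the 6932 autosomal resistant loops and 11.9% of the 6654 autosomal parental loops. They are called gene-free loops here.

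The resistant Hi-C samples were wild-type primary-tumour pancreatic cancer cells, selected for resistance and treated with gemcitabine, a nucleoside analogue used against this cancer. Doxorubicin, not gemcitabine, is the drug that the series description gives for the Hi-C samples, and the drug follows the sample labels here. The parental Hi-C samples came from the unselected wild-type cells and had DMSO. Resistance and drug therefore went together and cannot be told apart in these lists. The labels name 3 samples per condition among the 54 of the series, but each condition has 1 list of loops and 1 of domains, so no value below has a replicate and no test between conditions was made. The read depth behind the lists is unknown, and expression markers of the labelled cell type could not be checked in lists of loops. Intervals in brackets are exact 95% Clopper-Pearson intervals. They cover counting error only, and loops on the same chromosome are not independent.

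Loops and domains are thought to form when cohesin extrudes DNA until it meets bound CTCF, and loops also join promoters with enhancers. A loop without a gene at its anchors can still frame a gene that lies inside it, or it can enclose none. MicroRNA genes were not used by the membership rule. They encode short RNAs that repress messenger RNAs paired to their seed, the bases 2 to 8 of the mature strand. The let-7 family is known for repressing growth-promoting transcripts, and miR-100 and miR-125b are often made from the same host transcript as let-7a-2.

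Of 1136 autosomal microRNA genes in the RefSeq annotation, 59 (5.19%, 3.98 to 6.65) were enclosed by a gene-free loop or lay within 5 kb of its anchors, and 25 of these had a loop found in both lists. A loop was called found in both lists if the other list had a loop with both ends no more than 10 kb away from its own. Among the 10 autosomal let-7 genes of the annotation, 6 had such a loop. They lay at 3 loci, so they are not 6 independent cases. MicroRNA genes were not more frequent at these anchors than at others. One lay within 5 kb of an anchor in 1.1% of resistant and 1.3% of parental gene-free loops. For loops of the same span range with a gene at 1 anchor it was 2.1% of resistant and 2.2% of parental loops. With a gene at both anchors it was 3.0% of resistant and 3.2% of parental loops. The rule keeps microRNA genes that lie inside protein-coding genes away from gene-free anchors, so this order is partly set by the rule. Enclosed were 4.40% of microRNA genes, beside 4.12% of autosomal protein-coding genes. The mature strands are printed because the let-7 strands share a seed and the others mark loci described below, chosen with their values known. They are from RefSeq on GRCm38.p6, the assembly of mm10, 5′ to 3′ with the seed in capitals.
mmu-let-7b-5p: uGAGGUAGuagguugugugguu
mmu-let-7c-5p: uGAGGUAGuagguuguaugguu
mmu-let-7a-5p: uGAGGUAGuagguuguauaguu
mmu-let-7d-5p: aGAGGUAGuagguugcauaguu
mmu-let-7f-5p: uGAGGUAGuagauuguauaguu
mmu-miR-100-5p: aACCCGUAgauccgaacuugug
mmu-miR-125b-5p: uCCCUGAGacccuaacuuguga
mmu-miR-193a-3p: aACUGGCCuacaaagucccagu
mmu-miR-365-3p: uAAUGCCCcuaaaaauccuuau
mmu-miR-205-5p: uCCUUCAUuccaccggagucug
The seed GAGGUAG was shared by the 5 let-7 strands shown, and 13 of 1738 mature strands in the table have it. The other strands shown share no seed with each other or with let-7.

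Ranked by the greater of its p-values in the lists, the strongest loop found in both lists that enclosed no protein-coding gene lay at the let-7c-2 and let-7b pair on chromosome 15. The caller's p-value was 7.81e-11 in the resistant list, where the loop spanned 95 kb, and 8.98e-09 in the parental list, where it spanned 100 kb. Both microRNA genes lay inside the right anchor bin of the resistant loop, chr15:85705001-85710000, in the interval between Wnt7b, a Wnt ligand, and Ppara, a nuclear receptor of fatty acid breakdown. The anchors were 28.2 kb from Wnt7b and 24.9 kb from Ppara in the resistant list. The lncRNA genes Gm34622 and Lncppara overlapped the anchor bins.

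At the second let-7 locus a loop on chromosome 9, chr9:41475001-41585000, held miR-100 and let-7a-2 inside and miR-125b-1 in its right anchor bin. It had the same bins in both lists, with a p-value of 6.77e-07 in the resistant list and 2.47e-07 in the parental list. Its nearest protein-coding gene was Ubash3b, 313 kb away, and its anchors overlapped Mir100hg, the lncRNA host gene of this cluster. The third locus, on chromosome 13, also kept its bins. There the loop enclosed let-7d, let-7f-1 and let-7a-1 together with 1 protein-coding gene, Ptpdc1, and had p-values of 5.53e-10 in the resistant list and 3.24e-10 in the parental list.

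A further empty loop, on chromosome 11 between Rab11fip4 and Utp6, had miR-193a and miR-365-2 at its left anchor or just inside. Its p-value was 4.33e-10 in the resistant list and 1.19e-05 in the parental list. The genes of miR-29a and miR-29b-1 lay 2.25 and 1.91 kb from the anchor of a parental-only loop on chromosome 6 with a p-value of 1.91e-06, whose anchor overlapped the lncRNA Lncpint. miR-129-1 lay in the anchor bin of a resistant-only loop with a p-value of 2.16e-06. miR-205, an epithelial microRNA, was enclosed by 3 resistant loops, the lowest with a p-value of 3.57e-06, and by 0 parental gene-free loops, although at least 1 of the 3 had a parental partner outside the class.

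**Figure D1:**
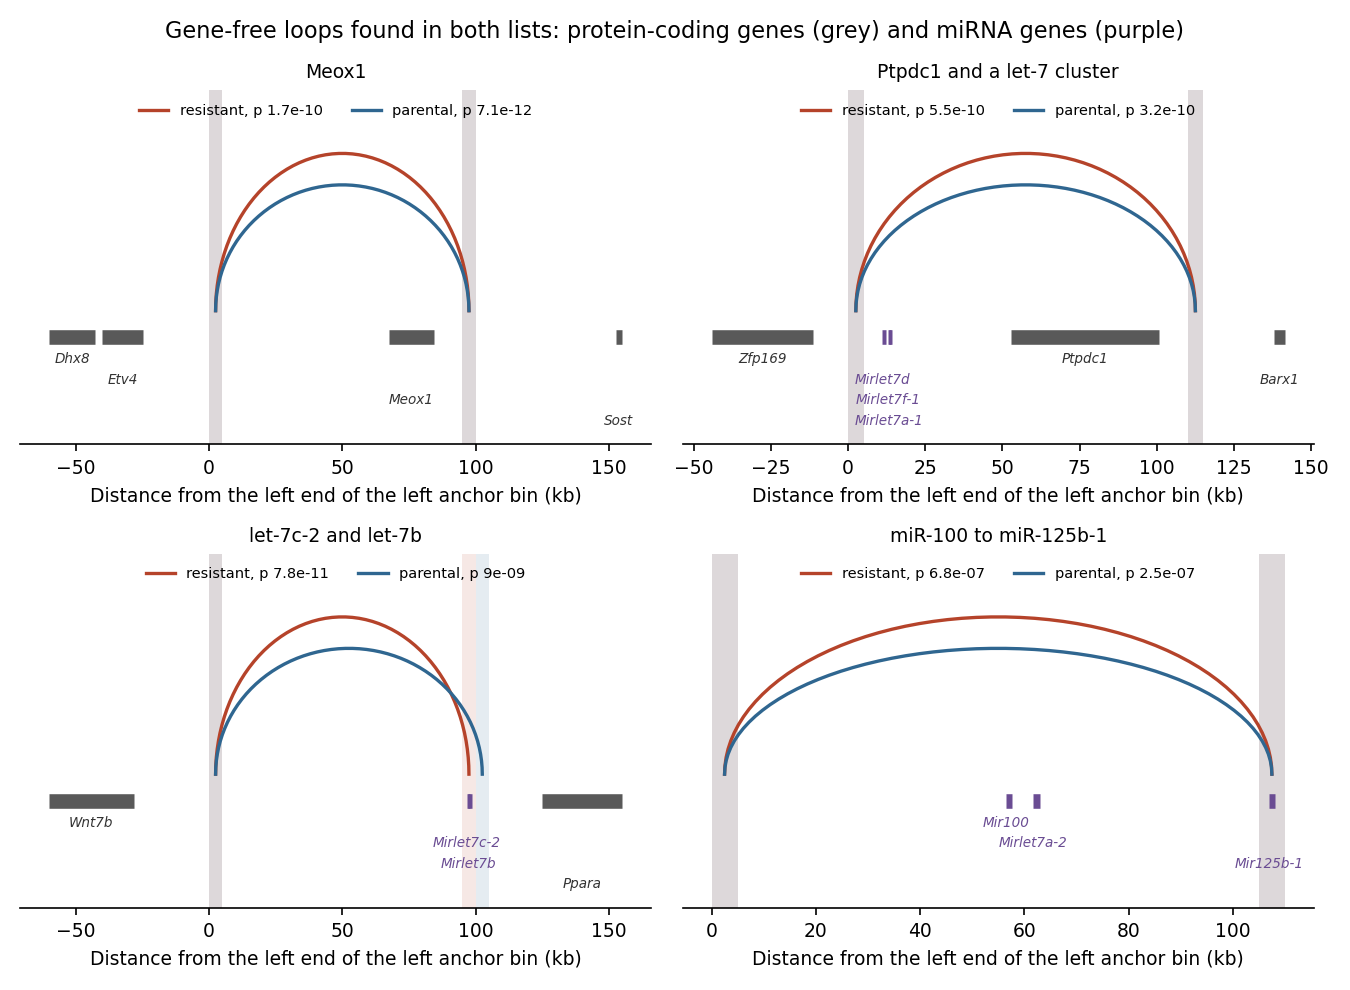
Gene-free loops at 4 loci found in both lists, drawn as arcs (red resistant, blue parental; height has no unit) over protein-coding genes in grey and microRNA genes in purple, with distance in kb from the left end of the left resistant anchor bin; shaded bands are anchor bins, predicted genes are not drawn, and genes are cut at the window's edge. The arcs end in the same bins at 3 loci, and at let-7c-2 and let-7b the resistant loop spans 95 kb and the parental loop 100 kb.

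With all calls counted, gene-free loops were found in both lists less often than loops with genes at their anchors. Of the 904 resistant members, 193 had a parental partner (21.35%, 18.7 to 24.2), against 36.3% of all autosomal resistant loops. Of the 794 parental members, 201 had a resistant partner (25.3%, 22.3 to 28.5), against 37.8% of all autosomal parental loops. Loops of the same span range with a gene at 1 anchor were found in both lists in 46.6% of resistant and 49.0% of parental cases. Those with a gene at both anchors were so in 44.8% of resistant and 44.4% of parental cases. The difference between these shares, gene-free minus gene at both anchors, was -23.4 percentage points in the resistant list (-26.7 to -20.0, from the combined intervals of both shares). In the parental list the difference was -19.1 (-22.7 to -15.4). With only the loops up to the median p-value of each list, it was -5.79 in the resistant list (-12.1 to 0.569) and turned to 3.13 in the parental list (-3.78 to 9.88), and both intervals include 0. The share was below that of loops with a gene at both anchors on 19 of 19 autosomes in the resistant list and on 18 of 19 in the parental list. Gene-free calls were also weaker. Their median p-value was 0.00169 in the resistant list and 0.00137 in the parental list, against 3.21e-05 for resistant and 3.47e-05 for parental loops with a gene at both anchors.

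The members divided by what lay between their anchors. In the resistant list 600 members (66.4%, 63.2 to 69.4) enclosed no protein-coding gene and are called empty here, and 304 enclosed at least 1. In the parental list 475 (59.8%, 56.3 to 63.2) were empty and 319 enclosed a gene. Empty loops were found in both lists in 9.33% of resistant cases (7.13 to 12.0) and 12.0% of parental cases (9.22 to 15.3). Gene-enclosing loops were found in both lists in 45.1% of resistant cases (39.4 to 50.9) and 45.1% of parental cases (39.6 to 50.8). The difference, gene-enclosing minus empty, was 35.7 percentage points in the resistant list (29.5 to 41.9) and 33.1 in the parental list (26.7 to 39.4). The intervals of gene-enclosing loops overlapped those of loops with a gene at both anchors. The share was higher in gene-enclosing than in empty loops on 19 of 19 autosomes in each list. Loops around 1 gene were found in both lists in 48.6% of resistant and 42.6% of parental cases, those around 2 genes in 39.4% of resistant and 57.6% of parental cases, and those around 3 or more in 40.7% of resistant and 41.2% of parental cases.

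**Figure D2:**
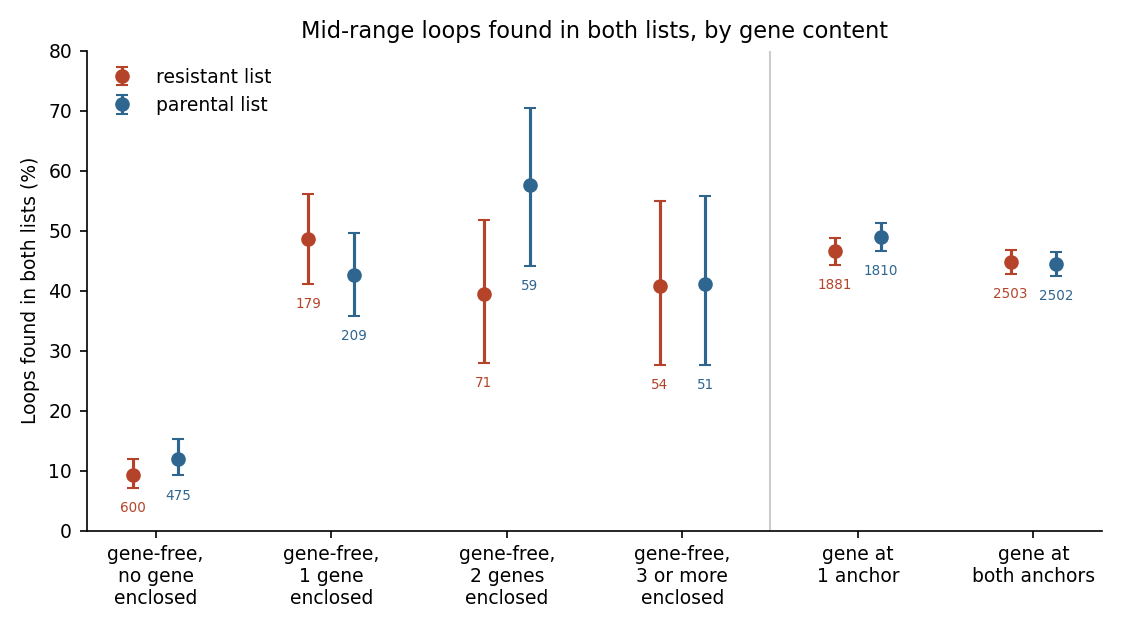
Share of mid-range loops found in both lists (vertical axis, %) by the protein-coding genes they enclose or have at their anchors, for the resistant (red) and parental (blue) list; points are shares, bars exact 95% intervals and small numbers the loops counted. Empty gene-free loops sit at 9.33% in the resistant list and 12.0% in the parental list, and the other classes from 39.4% upward.

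Strength of call moved with this split. Empty loops had a median p-value of 0.00344 in the resistant list and 0.00413 in the parental list, and gene-enclosing loops 4.93e-05 in the resistant list and 4.18e-05 in the parental list. Each list was therefore divided into quartiles of p-value over all its autosomal loops. Only 42 of the 600 resistant empty loops and 18 of the 475 parental empty loops fell in the lowest quartile of p. In that quartile 45.2% of resistant empty loops (29.8 to 61.3) were found in both lists, against 83.2% of gene-enclosing loops (74.4 to 89.9). In the parental list the shares were 77.8% for empty loops (52.4 to 93.6) and 81.1% for gene-enclosing loops (72.4 to 88.1), and these intervals overlap. In the second quartile the shares were 24.3% for empty loops (15.1 to 35.7) and 44.7% for gene-enclosing loops (33.3 to 56.6) in the resistant list. In the parental list they were 47.9% for empty loops (33.3 to 62.8) and 44.9% for gene-enclosing loops (32.9 to 57.4), with the empty loops no lower. In the third quartile the shares were 8.88% for empty and 24.1% for gene-enclosing loops in the resistant list, and 9.70% for empty and 24.1% for gene-enclosing loops in the parental list.

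**Figure D3:**
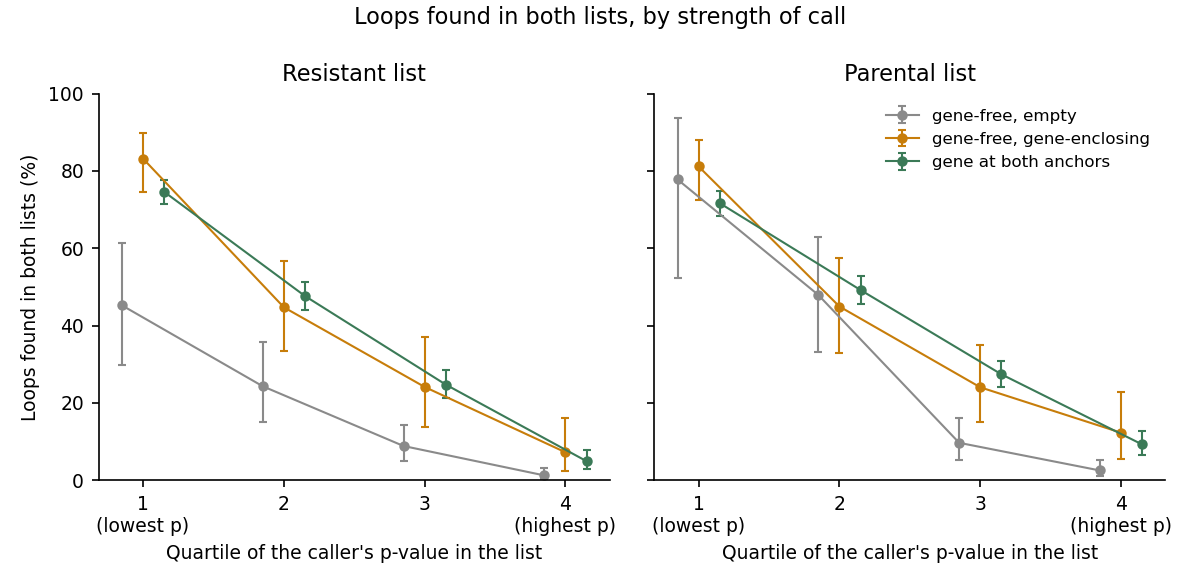
Share of loops found in both lists (vertical axis, %) in each quartile of the caller's p-value, resistant list left and parental list right; points are shares and bars exact 95% intervals. Shares fall with p in all 3 classes, and in the lowest quartile empty loops stand at 45.2% in the resistant list and 77.8% in the parental list.

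The gap between the kinds was present in short and long loops. Members had a median span of 130 kb in both lists, and empty loops were shorter than gene-enclosing loops, at 105 kb against 172.5 kb in the resistant list and 115 kb against 160 kb in the parental list. Among loops of 35 to 95 kb, 11.2% of resistant empty loops and 15.6% of parental empty loops were found in both lists, and 48.3% of resistant and 41.7% of parental gene-enclosing loops. At 200 to 395 kb the shares were 5.83% in the resistant list and 10.0% in the parental list for empty loops, and 41.3% in the resistant list and 45.7% in the parental list for gene-enclosing loops.

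Matched members mostly met their own kind. The partner of 175 of the 193 resistant members was itself a gene-free loop of the parental list, and 92 had exactly the same anchor bins. For 17 of them the parental partner had a gene at 1 anchor, since a shift by a bin or more can bring a gene within 5 kb. Of the 193 pairs, 92 had the lower p-value in the resistant list and 100 in the parental list. The p-values of the pairs had a Spearman rho of 0.64, a description over pairs that share chromosomes and the caller. Among the 56 empty pairs 35 had the lower p-value in the resistant list and 21 in the parental list, and among the 137 gene-enclosing pairs 57 had it in the resistant list and 79 in the parental list, with 1 tie.

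**Figure D4:**
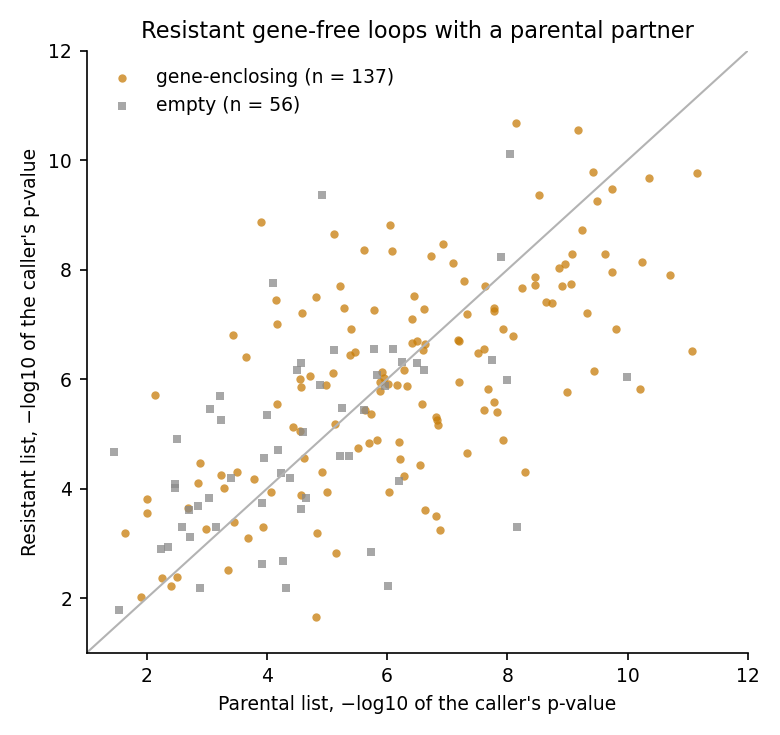
Each point is a resistant gene-free loop with a parental partner, placed by −log10 of the caller's p-value in the parental list (horizontal) and the resistant list (vertical); circles are 137 gene-enclosing and squares 56 empty loops, and the line marks equal values. The points lie on both sides of the line, with 92 pairs of lower p in the resistant list and 100 in the parental list.

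Members found in both lists were ranked by the greater of their p-values in the lists. By this ranking the first 6 each enclosed exactly 1 protein-coding gene, which was not part of the ranking. Of all 193 resistant members found in both lists, 87 enclosed exactly 1. The loop around Meox1, a homeobox gene of mesoderm development, spanned 95 kb at chr11:101810001-101910000, with a p-value of 1.74e-10 in the resistant list and 7.06e-12 in the parental list. The loop around Atoh8, a basic helix-loop-helix transcription factor, spanned 75 kb at chr6:72185001-72265000, with a p-value of 2.14e-10 in the resistant list and 4.47e-11 in the parental list. Perp, a p53 target that encodes a desmosomal membrane protein, lay in a loop of 65 kb at chr10:18835001-18905000, with a p-value of 3.38e-10 in the resistant list and 1.81e-10 in the parental list. All 3 had identical anchor bins in both lists.

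The other loops of this group framed Calcoco1, Ptpdc1 and Smad6. Calcoco1, which encodes a selective autophagy receptor, was framed by a loop of 45 kb with a p-value of 1.67e-10 in the resistant list and 3.82e-10 in the parental list. Smad6, an inhibitor of bone morphogenetic protein signalling, was framed by a loop of 185 kb with a p-value of 2.78e-11 in the resistant list and 6.77e-10 in the parental list. The distance from the nearer anchor to a gene ran from 5.07 kb at Perp to 17.1 kb at Smad6, where the neighbour was Lctl. In loops around 1 gene, the gene filled a median of 18.9% of the span in 179 resistant loops and 20.9% in 209 parental loops. The framed genes had a median length of 27.4 kb in the resistant list and 26.4 kb in the parental list, against 17.5 kb for all autosomal protein-coding genes. They were selected as the only gene between anchors without genes, and the part of this selection in their length was not tested.

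Condition-specific members made up the larger part of both lists, with 711 resistant-only and 593 parental-only loops. Across all autosomal loops 63.7% were resistant-only in the resistant list and 62.2% parental-only in the parental list. Among empty loops the condition-specific calls were 544 in the resistant list and 418 in the parental list, a resistant share of 56.6% (53.3 to 59.7). Among gene-enclosing loops they were 167 in the resistant list and 175 in the parental list, a resistant share of 48.8% (43.4 to 54.3). For all autosomal loops the resistant share was 51.6% (50.6 to 52.7). The depth behind each list is unknown, and its part in these counts was not tested. In 71.2% of the resistant-only members and 71.2% of the parental-only members, neither anchor lay within 10 kb of any anchor in the other list. This share was not computed for other classes of loops, so it cannot be called particular to gene-free loops.

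The strongest resistant-only loops framed 3 genes and 3 intervals without one. Elovl5, which elongates polyunsaturated fatty acids, lay in a loop of 220 kb at chr9:77805001-78030000 with a p-value of 1.05e-09, between the neighbours Gclc, of glutathione synthesis, and Gcm1. Igsf11, of an adhesion protein, lay in a loop of 195 kb with a p-value of 1.13e-08. Slc5a7, the choline transporter gene, lay in one of 275 kb with a p-value of 4.92e-08, and Slc5a7 was also framed by another loop that was found in both lists. The 3 empty loops had p-values of 2.83e-09 in the interval from Tenm2 to Mat2b, 4.34e-09 beside Phlda1 and 2.29e-08 between Ifne and Mtap. The last one overlapped the lncRNA gene Wincr1 at an anchor. Of the 6 loops, 5 had no anchor in use in the parental list, and the Slc5a7 loop had 1.

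The strongest parental-only loops each enclosed a gene. Foxa2, a pioneer transcription factor of endoderm and pancreas, lay in a loop of 305 kb at chr2:147805001-148115000 with a p-value of 6.55e-08, whose anchors were both in use in the resistant list by other loops. Tbx4, a T-box factor of limb and lung development, lay in a loop of 120 kb with a p-value of 2.95e-09, and Pawr, a pro-apoptotic regulator, in one of 135 kb with a p-value of 3.31e-09. Sec14l1, a regulator of antiviral signalling, lay in a loop with a p-value of 1.09e-08, the sodium channel gene Scn9a in one with a p-value of 4.92e-08, and the connexin gene Gja5 in one with a p-value of 7.82e-08. Scn9a had a further parental loop that was found in both lists. The Pawr loop also held the predicted gene Gm40755. None of these 6 had a resistant partner within 10 kb at both anchors.

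Gene-free loops enclosed few of the protein-coding genes. Of 20665 on autosomes, 531 (2.57%) lay in a resistant loop and 552 (2.67%) in a parental loop, with 231 in both and 852 (4.12%) in either. No gene had more than 4 enclosing loops over both lists. Those with 4 included Pmaip1, which encodes the cell death protein Noxa, the amino acid transporter gene Slc1a4, Ccdc54, Phf3, Twist2 and Gda, each with 2 loops per list, all of them found in both. Lurap1l had 1 resistant and 3 parental loops, and the neighbouring oocyte and Prame-family genes Oog2, Oog3 and Pramel29 shared 3 resistant loops and 1 parental loop.

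Few genes leaned to a condition by more than 1 loop. Counting resistant-only minus parental-only loops, 6 genes leaned to the resistant list by 2, among them Elmod1, with 2 resistant loops and 0 parental loops. Another 8 leaned to the parental list by 2. These included Arrdc4 with a lowest p-value of 8.70e-08, the ubiquitin ligase gene Siah2 with 1.58e-06, Vgll3 with 0.000178, Glrp1, Xcl1 and the receptor genes Olfr987 and Olfr988, all with 0 resistant loops and 2 parental loops. Kdr, the vascular endothelial growth factor receptor, had 2 resistant loops and 1 parental loop. The neurofilament genes Nefl and Nefm shared 1 resistant loop and 2 parental loops. Trim33 had a resistant-only loop with a p-value of 0.000132 and a different parental loop, found in both lists, with one of 6.24e-10.

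Gene lists for this tissue and drug each held at most 6 enclosed genes, and no list was tested as a set. The shares of lists with enclosed genes ran from 3.12% to 17.6%, beside 4.12% of all autosomal protein-coding genes, and with so few genes each their intervals are wide. Of 26 genes for gemcitabine uptake, activation and inactivation, 0 were enclosed (upper bound 13.2%). None were enclosed either of 20 endocrine islet, 17 fibroblast and stellate, 19 immune cell and 15 housekeeping genes. Of 17 drug exporter genes, 0 lay in resistant loops and 3 in parental loops (17.6%, 3.80 to 43.4). Abcg2, an efflux pump, lay in a parental-only loop with a p-value of 9.40e-07. Of 21 acinar enzyme genes, the trypsinogen genes Prss1, Prss2 and Prss3 shared 1 resistant-only loop with a p-value of 0.00112. They are near copies of each other, so the placing of reads there is uncertain.

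Among 23 apoptosis regulators 3 were enclosed (13.0%, 2.78 to 33.6), all by loops found in both lists, which enclosed 1.34% of all autosomal protein-coding genes. The inhibitor genes Birc2 and Birc3 shared a loop with a p-value of 1.30e-06 in the resistant list and 1.06e-05 in the parental list, and the third was Pmaip1. Of 30 cytokine and chemokine genes, 2 lay in resistant loops (6.67%) and 5 in parental loops (16.7%), beside 2.57% of all genes in resistant and 2.67% in parental loops. Cxcl14, a chemokine, had a p-value of 2.31e-07 in both lists. Il33, an alarmin, had 1 resistant loop and 2 parental loops. Vcam1, an adhesion molecule gene that this list includes, had only a parental-only loop. The neighbours Cxcl3 and Cxcl5 also had only a parental-only loop, with the same p-value of 0.000675, so they are not independent cases. Of 31 foregut and pancreatic factors, Foxa2 and Ptf1a, a factor of acinar fate, had parental-only loops, that of Ptf1a with a p-value of 0.00136.

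Of 35 genes listed as AP-1, Klf, Ets and Cebp factors 5 were enclosed (14.3%, 4.81 to 30.3). Ets1 lay in a loop found in both lists, Ets2, Runx3 and Klf7 in parental-only loops and Etv6 in a resistant-only loop. Runx3 is a Runt-family factor that this list includes. Of 83 developmental factors 6 were enclosed (7.23%, 2.70 to 15.1), Barx2 and Emx1 by loops found in both lists. Of 26 pancreatic cancer driver genes 2 were enclosed (7.69%, 0.946 to 25.1). Met, a receptor tyrosine kinase gene, had a p-value of 1.34e-06 in the resistant list and 4.70e-07 in the parental list, and the cyclin gene Ccne1 had a parental-only loop with a p-value of 0.000363. Of 51 Wnt, Notch and Hedgehog genes the Wnt receptor gene Fzd2 had a p-value of 7.15e-09 in the resistant list and 5.79e-11 in the parental list, and Fzd8 had a resistant-only loop with a p-value of 0.0375. Of 27 mesenchymal transition genes Twist2 and Ovol1 were enclosed, of 36 bone morphogenetic protein, activin and fibroblast growth factor genes Fgf3 and Fgf4, of 64 neuronal genes Cdh11 and Slitrk1, and of 15 endothelial markers Kdr.

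Many empty loops lay in long intervals without protein-coding genes. The interval between the flanking protein-coding genes had a median of 716 kb in the resistant list (quartiles 358 and 1473 kb) and 724 kb in the parental list (quartiles 359 and 1371 kb), and exceeded 1 Mb for 39.5% of resistant and 36.6% of parental empty loops. Of all 4471 autosomal intergenic gaps of 50 kb or more, 5.77% exceeded 1 Mb. A longer gap has more room for loops, so the shares are a description. The nearer anchor was a median of 111 kb from a gene for resistant empty loops and 92.97 kb for parental empty loops. It was over 500 kb away for 81 resistant loops and 61 parental loops, all of them empty. For gene-enclosing loops the median was 12.4 kb in the resistant list and 12.6 kb in the parental list, a distance the enclosed gene itself bounds. By the rule's limit of 5 kb, the closest members had a gene 5.04 kb away in the resistant list and 5.01 kb in the parental list, and the non-members farthest out had one 4.98 kb away in each.

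Among the empty loops, those far from any gene were found in both lists least often. Those over 100 kb from any gene were found in both lists in 3.80% of 316 resistant cases (1.98 to 6.54) and 5.75% of 226 parental cases (3.10 to 9.64). Those within 20 kb were so in 14.9% of 94 resistant cases (8.39 to 23.7) and 17.5% of 80 parental cases (9.91 to 27.6). Those at 20 to 100 kb differed little from the near ones, with 15.8% of 190 resistant cases (10.9 to 21.8) and 17.8% of 169 parental cases (12.3 to 24.4). The median p-value was 0.00717 for the far loops and 0.000465 for the near ones in the resistant list, and 0.00704 for the far and 0.000913 for the near ones in the parental list.

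Gene-enclosing loops more often began or ended at a domain border than empty loops. An anchor lay within 20 kb of a border of its own condition in 45.4% of resistant gene-enclosing loops (39.7 to 51.2) and 40.4% of parental ones (35.0 to 46.0). For empty loops the shares were 15.0% (12.2 to 18.1) in the resistant list and 12.2% (9.40 to 15.5) in the parental list. Loops with a gene at both anchors lay between, at 31.4% in the resistant list and 28.9% in the parental list, and their intervals did not overlap those of either kind. Loops with a gene at 1 anchor were closer to gene-enclosing loops, at 37.2% (35.0 to 39.4) in the resistant list and 33.2% (31.0 to 35.4) in the parental list. In the parental list their interval overlapped that of gene-enclosing loops. Gene-enclosing loops were also longer than empty loops and lay in smaller domains. The median host domain was 520 kb for resistant and 500 kb for parental gene-enclosing loops. For empty loops it was 700 kb in the resistant and 780 kb in the parental list. The part of span and domain size in the border shares was not tested. Sharing moved with borders too. Gene-enclosing loops with an anchor at a border were found in both lists in 52.9% of resistant and 55.8% of parental cases, and those without one in 38.6% of resistant and 37.9% of parental cases. Empty loops at a border were so in 18.9% of resistant and 20.7% of parental cases, and empty loops elsewhere in 7.65% of resistant and 10.8% of parental cases.

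**Figure D5:**
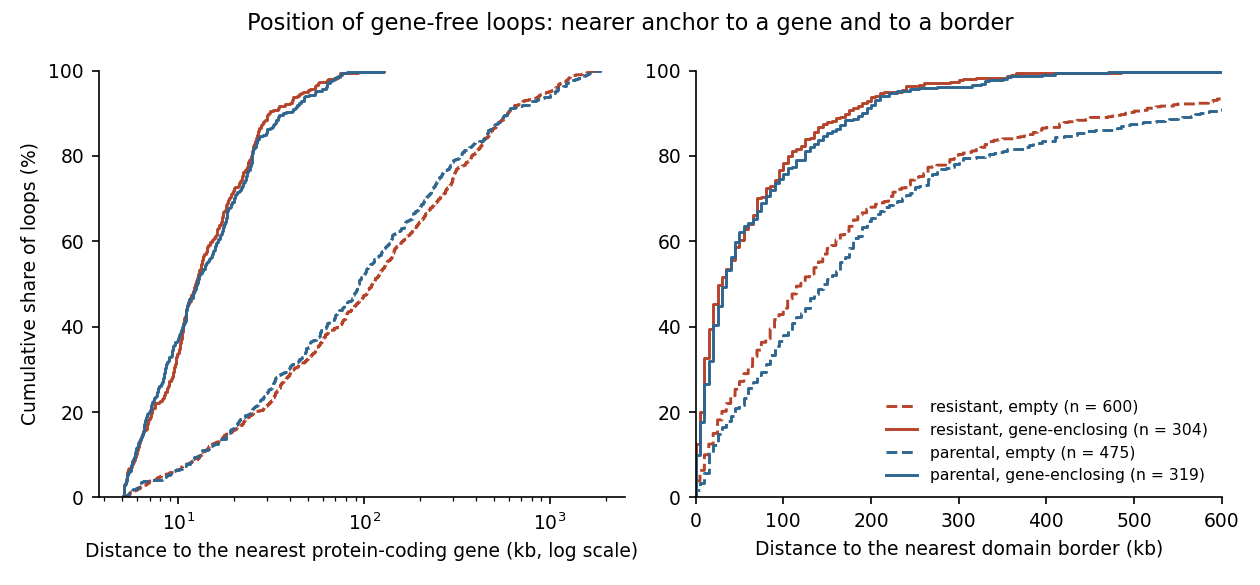
Cumulative share of gene-free loops (vertical axis, %) by distance in kb from the nearer anchor to a protein-coding gene (left, log scale) and to a domain border (right, drawn to 600 kb), for empty (dashed) and gene-enclosing (solid) loops of the resistant (red) and parental (blue) list. The median gene distance of empty loops is 111 kb in the resistant list and 92.97 kb in the parental list, and gene-enclosing loops lie nearer to borders than empty loops in both.

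Domains that held empty loops were larger and poorer in genes. The median size was 700 kb in the resistant list and 780 kb in the parental list, against 490 kb for all resistant and 510 kb for all parental autosomal domains, though larger domains have more room for loops. Genes per Mb of the host domain had a median of 2.10 for resistant and 2.08 for parental empty loops, and 10.0 for resistant and 9.68 for parental gene-enclosing loops. Over all domains the medians were 7.55 in the resistant list and 7.88 in the parental list. Empty loops have by definition no gene at or between their anchors, and gene-enclosing loops have at least 1. The difference in gene density is therefore partly set by the definition. Host medians were taken over loops, so a domain with several loops was counted once for each of them.

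Few anchor bins were shared between gene-free loops, with loops of other classes not counted. Of 1766 distinct resistant anchor bins 1727 were used by 1 member, and of 1561 parental bins 1534 were. In 10.3% of resistant members (8.38 to 12.4) and 10.5% of parental members (8.41 to 12.8), an anchor bin was also the anchor of another loop that ended at a gene. For loops with a gene at 1 anchor this share was 20.3% in the resistant list and 22.7% in the parental list. With a gene at both anchors it was 19.4% in the resistant list and 19.3% in the parental list. Among members it was 16.8% of resistant and 15.4% of parental gene-enclosing loops. Empty loops had the lowest shares, at 7.00% in the resistant list and 7.16% in the parental list. A lncRNA gene overlapped an anchor bin in 32.3% of resistant members and 35.6% of parental members.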

How the data were processed

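The members and lists were chosen with earlier results of these data known. The deposited tables used were a loop list and a domain list per condition. Per the labels' protocols, fixation was with 1% formaldehyde for 10 min and the restriction enzyme was DpnII. The submitters' processing notes name BWA, mm10 and hg19; the callers, and whether replicates were pooled, are not stated in those sources. The authors deposited a p-value per loop, at most 0.0497, and a separation score per domain, which was not used.

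Genes came from RefSeq for GRCm38.p6, without strand. Loops were classified, matched within 10 kb to the whole other list and counted with Python 3.11.15 and scipy 1.17.1, and the steps were tested on simulated data. Genes of 1136 microRNAs and 12408 lncRNAs served only for description. There were 18 gene lists with 568 genes, 11 of them unmatched on autosomes. Named were the 6 loops of lowest p in each class, the 10 genes with most loops, 10 per direction and up to 4 per list, with predicted symbols left out. MicroRNA loci were picked with their values known. The settings varied were match tolerances, gene windows, border tolerances, call thresholds, list length and one-to-one matching. The 48 other samples were not analysed here. Some genes the naming rule took are not reported here.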

Additional observations from a re-analysis of the deposited data

How the results depend on the processing

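No paired analysis was possible because each condition has 1 list, and for the same reason no replicate could be left out. Over 13 settings 177 alternative values were computed, of which 109 stayed within their counting interval or 1.5 times the count, 67 moved and 1 changed sign. With lists of equal length, one-to-one matching, or match tolerances of 5 and 20 kb, no value moved. Below, the gap means gene-free loops minus loops with a gene at both anchors in the share found in both lists. The enclosing gap means gene-enclosing minus empty loops and was added after seeing the data.

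With the loops up to the median p-value of each list kept, the resistant list had 298 members, of which 46.3% were found in both lists, 40.3% were empty and 47.0% had an anchor at a border, with a gene distance of 14.8 kb, a host domain of 477.5 kb and a gap of -5.79 percentage points. The parental list had 248 members, of which 56.9% were found in both lists, 28.2% were empty, 43.1% had an anchor at a border and 12.9% were linked to a gene, with a span of 145 kb, a gene distance of 13.1 kb and a host domain of 500 kb. There the gap turned to 3.13 points, against -19.1 with all calls, and the enclosing gap was 15.5 points, against 33.1.

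With identical bins required, 10.2% of resistant and 11.6% of parental members were found in both lists, the gap was -8.48 points in the resistant and -7.04 in the parental list, and the enclosing gap 22.8 in the resistant and 21.0 in the parental list. With a gene barred only from the anchor bin, the resistant list gave 30.6% found in both, 51.4% empty, 14.2 kb to a gene, 29.5% at a border, 560 kb for the host domain and a gap of -10.1 points. The parental list gave 34.1%, 45.6%, 12.9 kb, 27.4%, 590 kb and -6.67 points in the same order of measures. With a gene window of 10 kb the resistant list gave 17.96%, 73.5%, 61.9 kb, 21.8%, 660 kb and -28.1 points, and the parental list 20.6%, 68.9%, 50.7 kb, 20.3%, 670 kb and -25.6 points.

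With non-coding genes counted too, the resistant list had 419 members, of which 13.4% were found in both lists, 39.1% were empty, 19.8% were at a border and 13.4% were linked to a gene, at 17.1 kb from a gene, in host domains of 710 kb, with a gap of -31.7 and an enclosing gap of 17.9 points. The parental list had 371 members, of which 15.9% were found in both lists, 38.5% were empty and 17.0% were at a border, at 17.98 kb from a gene, in host domains of 750 kb, with a gap of -29.9 and an enclosing gap of 20.2 points. A border tolerance of 10 kb gave 17.7% of resistant and 14.1% of parental members at a border, and one of 40 kb 35.5% of resistant and 34.7% of parental members. The cause of these moves was not tested. The unknown read depth limits how far calls absent from a list can be read.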

Other observations

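Among the strongest calls, empty loops leaned to the resistant list. This was noticed after the values were seen, has no replicate and is given as counts. In the lowest quartile of p-value of each list, 23 resistant-only and 4 parental-only loops were empty, a resistant share of 85.2% (66.3 to 95.8), with the resistant ones on 13 chromosomes. Loops of the 23 between Chrd and Gm6551 shared an anchor bin, so the 23 are not all separate cases. The limits of these quartiles differed, at 2.78e-06 in the resistant list and 1.79e-06 in the parental list. With the lower limit for both lists, a setting added after seeing the data, the counts were 16 resistant-only and 4 parental-only (80%, 56.3 to 94.3), and with the higher one 23 resistant-only and 7 parental-only (76.7%, 57.7 to 90.1). Gene-enclosing loops numbered 17 resistant-only and 20 parental-only (45.9%, 29.5 to 63.1), loops with a gene at 1 anchor 157 resistant-only and 138 parental-only, and loops with a gene at both anchors 201 resistant-only and 211 parental-only. With non-coding genes counted too, the empty loops numbered 4 resistant-only and 1 parental-only (80%, 28.4 to 99.5). The counts were the same with only the loops up to the median p-value of each list, the quartiles taken anew. In both settings the interval includes an equal split. Read depth is unknown and its part was not tested. Of the 23 loops, 11 had no anchor in use in the parental list, and of the 17 resistant-only gene-enclosing loops 7 had none. The loops named next were picked with their values known and are not the strongest of the 23. One lay 54.6 kb from Tgfbr2, a receptor of transforming growth factor beta, with a p-value of 2.46e-06, and another 460 kb from Myc with a p-value of 2.03e-06. Both p-values exceed the parental limit of 1.79e-06. One more lay 105 kb from Tnfaip3, an inhibitor of NF-kB signalling, with a p-value of 1.00e-06. The 4 parental-only loops lay beside Azin1, Dusp10, Npvf and Asb13.

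Some intervals between genes held several empty loops. Those named here were picked with their counts known. Others were mixed, such as Cntnap5b to Cdh20 and A1bg to Myc, each with 3 resistant and 3 parental loops. Over all empty loops, only 9.33% of resistant and 12.0% of parental ones were found in both lists. The interval of 3442 kb from Tenm2 to Mat2b on chromosome 11 held 6 resistant loops and 1 parental loop, with 0 found in both lists. The interval from Hace1 to Grik2 on chromosome 10 held 0 resistant loops and 6 parental loops, the lowest with a p-value of 0.000363. The interval from Prl5a1 to Sox4 on chromosome 13 held 5 resistant loops and 0 parental loops, the lowest with a p-value of 0.000143. By contrast the interval of 637 kb from Saraf to Dusp4 on chromosome 8 held 3 resistant loops and 3 parental loops, of which 5 of the 6 were found in both lists.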
